A study of Salmo salar with 31 samples.

Results

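The skin of 6 Atlantic salmon kept for 1 month in an open sea net-pen was compared with the skin of 6 fish of the same smolt group kept for the same time in a semi-closed containment system (S-CCS). These 12 samples, of 31 in the series, were taken by their labels, open cage or close containment system, one month after transfer to seawater, and are called net-pen 1M and S-CCS 1M. All 14841 non-control probes of the array, each a feature here, entered the comparison.

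Salmon skin is a living barrier in which an epidermis with mucus cells overlies a dermis with scales and layers of collagen. A smolt that leaves freshwater has to keep its water in a medium saltier than its blood, and the skin is in direct contact with the change. Fish skin is also as warm as the water around it, and enzymes work more slowly in the cold. A net-pen is open to the surrounding sea, and the S-CCS of this study was a floating raceway fed with water pumped from deeper, colder and saltier layers.

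The fish were Atlantic salmon of a commercial strain (Salmobreed QTL duo), moved to sea as yearling smolts after a period of short days followed by continuous light. One fish group was split at random between the systems, and both were given commercial dry feed. Skin came from the same place on the left flank of every fish, and the 1-month samplings of the systems fell on consecutive days. The other samples were 7 smolts in freshwater, sampled before transfer, and 6 fish per system after 4 months at sea (net-pen 4M and S-CCS 4M). There was 1 enclosure for each system, at different sites and with different water, so that the system, the enclosure, the site, the temperature and the salinity cannot be told apart. The 6 fish of a group are separate animals from that 1 enclosure. The p-values and confidence intervals rest on the spread between fish within groups, not between enclosures. That spread was pooled over every group of the series, smolts and fish of 4 months included.

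RNA of 1 fish was hybridized to each single-colour array, and the level of a feature was expressed as log2-ER, the log2 ratio of its signal to its mean over all 31 arrays after scaling and lowess correction. Of the 12 arrays, each had between 84.3% and 97.1% of features well above background. The 6 arrays of net-pen 1M lay on 3 slides that held no other group, and the 6 of S-CCS 1M lay on 3 other slides shared with net-pen 4M and a smolt, so that slide and system cannot be told apart either. The scanner software had divided the signal by a spatial trend on 2 of the 12 arrays, those of net-pen 1M fish 11 and S-CCS 1M fish 2. No probe ID could be found among the 65341 genes of the reference annotation, so features carry no gene names, the tissue could not be checked against its marker genes, and at most 2 IDs are printed in each direction. A smaller share of a cell type in the skin and less RNA per cell cannot be told apart in such samples.

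At 1 month 872 of the 14172 features kept after a filter on dim probes differed between the systems, 561 higher and 311 lower in net-pen 1M. A feature was called where its unadjusted p was under 0.05 and its log2-ER differed by more than 0.8 (1.74-fold) in either direction, and 6.15% of kept features met them, 3.96% in the higher and 2.19% in the lower direction. The features higher in net-pen 1M had a median difference of 1.17 (2.25-fold), and 46 of them exceeded a difference of 2. The features lower in net-pen 1M had a median of −0.97, where S-CCS 1M was 1.96-fold brighter, and 7 of them passed −2. The largest differences were 3.50 and −2.89. The filter asked for signal in only 1 of the 5 groups. Of the 872 called features 583 were well above background on all 12 arrays, as were 12241 of the kept features. On no array of net-pen 1M were 24 of the called features well above background, and on no array of S-CCS 1M 10. Over all kept features 90% of the differences lay between −0.64 and 0.91, so that the upper tail was the longer one. This balance depended on the lowess correction. Without it the median of all features moved by −0.18, and 325 features were called higher and 706 lower, while normexp background correction called 218 higher and 37 lower.

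A Benjamini-Hochberg adjusted p under 0.05, by limma and with no limit on size, was reached by 912 features (6.44%). They were divided almost evenly, with 446 higher and 466 lower in net-pen 1M, and 504 of them had a difference of no more than 0.8. The criteria and the adjusted p were met together by 408 features, 254 higher and 154 lower. The count at the adjusted p moved widely with single fish, to 358 without net-pen 1M fish 7, 376 without fish 12 of the same group, 376 without S-CCS 1M fish 7 and 538, 537 and 548 without S-CCS 1M fish 11, 12 and 6, and up to 1301 without net-pen 1M fish 11. It also moved with the processing, to 408 with only the 12 arrays in the fit, 1591 without lowess, 1673 with the deposited values, 1712 with array weights and 1737 without detrending.

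**Figure D1:**
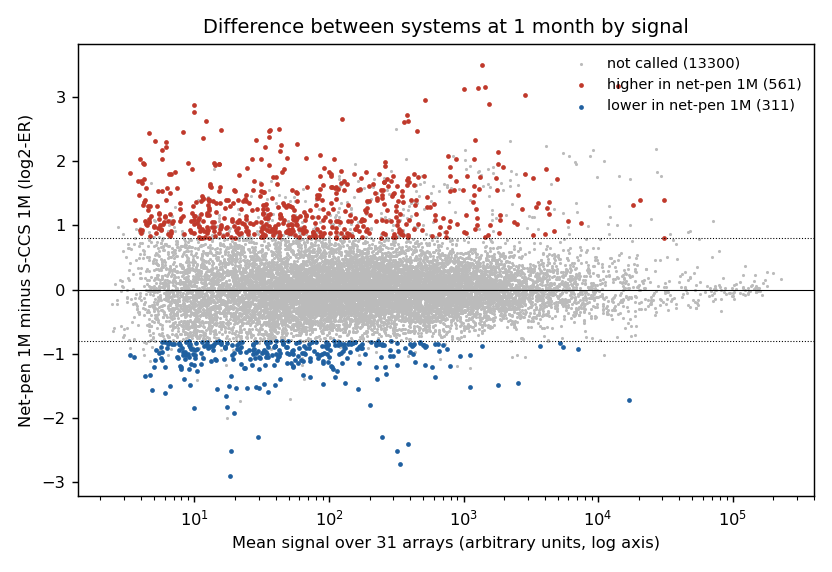
Difference net-pen 1M minus S-CCS 1M in log2-ER (vertical axis) against the mean signal of each feature over 31 arrays in arbitrary units (log axis), with called features in colour and dotted lines at ±0.8. The 561 red points reach 3.50, the 311 blue points reach −2.89, and called features become fewer toward bright signals.

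In 457 features, 3.22% of those kept, every fish of one system was above every fish of the other in log2-ER. Here the larger number went in the other direction, with 173 features higher and 284 lower in net-pen 1M. Of the 872 called features 152 separated the fish completely, 77 higher and 75 lower. The larger number of called features above 0 was therefore carried by features in which some fish of the 2 systems overlapped. The count of separated features was 1020 without net-pen 1M fish 11, whose array was detrended, 696 without fish 2 of that group and 715 without S-CCS 1M fish 1, where fewer fish make separation easier by construction.

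Dim features were called more often than bright ones, and the spread between fish changed along with the signal. In the dimmest quintile of kept features 11.9% were called, and in the brightest quintile 2.47%, with 7.55%, 5.19% and 3.63% between them. The median standard error (SE) of the difference fell from 0.306 to 0.162 over the same quintiles. At the adjusted p the shares were closer, 5.96% in the dimmest, 7.55% in the middle and 4.62% in the brightest quintile. The balance between directions changed as well. In the brightest quintile 59 features were called higher and 11 lower in net-pen 1M, against 206 and 132 in the dimmest. At the adjusted p the brightest quintile held 49 higher and 82 lower, so that most of its features lower at the adjusted p differed by less than a call requires.

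For most features, each interval taken by itself, the difference between the net-pen 1M and S-CCS 1M fish was bounded below the size of a call. Such a feature may still differ by up to 1.74-fold. For 8622 of the kept features (60.8%) the 95% confidence interval of the difference lay wholly between −0.8 and 0.8, which covered 76.1% of the brightest and 29.8% of the dimmest quintile. For 4678 features (33.0%) the data decided neither way, since they were not called and their interval reached beyond 0.8 in one or the other direction. At the median feature the interval reached 0.41 to either side of the difference. In 74 features, 55 higher and 19 lower in net-pen 1M, the whole interval lay beyond the threshold.

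The mean over the called features was computed for each fish as a description, since the features were chosen on these 12 fish. Over the 561 higher features the net-pen 1M fish lay between −0.16 and 0.98, and the S-CCS 1M fish between −1.18 and −0.45. Net-pen 1M fish 12 was the highest and fish 2 the lowest of its system. The array of fish 12 had the smallest share of features well above background among the 12, 84.3%, and a link between the level and the array was not tested. The smolts, which shared the normalization and the fit, lay between −1.04 and −0.02 and overlapped both groups. Over the 311 lower features the net-pen 1M fish lay between −1.01 and −0.52, the S-CCS 1M fish between 0.06 and 0.52 and the smolts between −0.09 and 0.25. In this set the smolts were next to S-CCS 1M and clear of net-pen 1M.

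**Figure D2:**
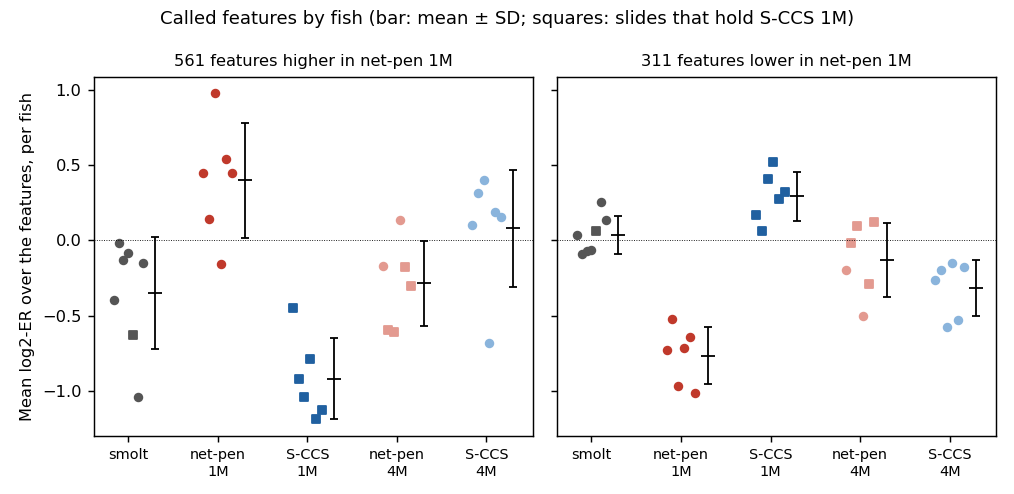
Mean log2-ER per fish over the 561 features called higher (left) and the 311 called lower (right) in net-pen 1M, by group, with bars for mean ± SD and squares for fish on slides that hold S-CCS 1M. The 2 groups that chose the features stand apart by construction, smolts overlap both on the left, and on the right they lie between −0.09 and 0.25.

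The higher features varied between fish as a block more than the lower ones. Pairwise correlations of the deviations from the group means over all 31 fish had a median of 0.184 among the higher features and 23.3% of pairs exceeded 0.5. Among the lower features the median was 0.103, with 7.81% of pairs above 0.5, and among all kept features it was −0.005, with 3.96%. These correlations share arrays, slides and depth of signal and carry no test. Within a group the median SD between fish of a higher feature was 0.65 in the net-pen fish and 0.60 in the S-CCS fish, and of a lower feature 0.55 and 0.49, against 0.35 and 0.30 over all kept features.

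Each system was set beside the freshwater smolts to see on which side of the earlier level the called features lay. Against smolts, 8.43% of kept features were called for net-pen 1M and 5.11% for S-CCS 1M. The comparisons share the smolts and the fish that chose the features, so their values are given side by side without a test. Of the 561 features higher in net-pen 1M, 141 were above smolts in net-pen 1M only and 133 were below smolts in S-CCS 1M only. In 276 neither system was called against smolts, and 4 were called in both in opposite directions. The group means lay on opposite sides of the smolts in 451 of the 561, with median differences from them of 0.63 for net-pen 1M and −0.60 for S-CCS 1M. Choosing features by the difference between the systems favours opposite sides, and the share over all kept features was not counted.

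Of the 311 lower features the group means lay on opposite sides of the smolts in 205. In net-pen 1M only, 108 were below smolts, 42 were above smolts in S-CCS 1M only and 22 were below smolts in both, further so in net-pen 1M. Neither was called in 137. The median difference from smolts was −0.74 for net-pen 1M and 0.24 for S-CCS 1M, and the absolute change from smolts was larger in net-pen 1M for 222 of the 311, against 269 of the 561 higher features. The lower features thus lay further from smolts in net-pen 1M more often than in S-CCS 1M, while the higher ones lay about equally far in either system. This count was not made over all kept features. Of those, more were called against smolts for net-pen 1M (8.43%) than for S-CCS 1M (5.11%). The majority is therefore not shown to be particular to the lower features.

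**Figure D3:**
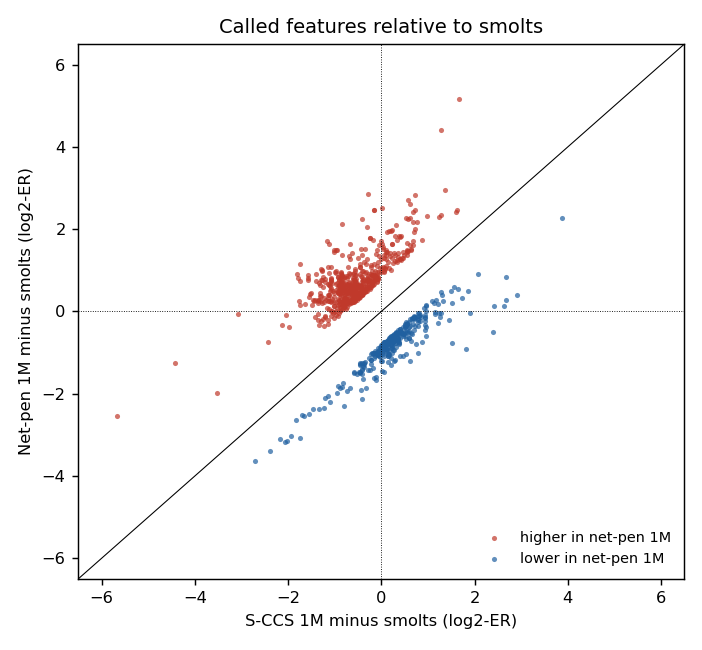
Difference from smolts in net-pen 1M (vertical axis) against that in S-CCS 1M (horizontal axis), both in log2-ER, for the 872 called features. Red points lie above and blue points below the diagonal because of how they were chosen, and 451 of the 561 red points lie in the quadrant above smolts in net-pen 1M and below them in S-CCS 1M.

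Single features were taken from those with an adjusted p under 0.05. The 15 largest differences in each direction were chosen among features whose fish did not overlap in log2-ER, and the 5 brightest in each direction among called features. The 15 largest higher features had differences from 1.48 to 2.77, and in all 15 the group means straddled the smolt mean. The 15 largest lower ones had differences from −1.82 to −1.14, and 12 of them straddled the smolts. Many were dim. Of the 15 higher ones 11 were well above background on all 12 arrays, and of the 15 lower ones 7.

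The feature with the largest difference among those separated was Ssa#S47730056. In log2-ER the net-pen 1M fish 1, 2, 6, 7, 11 and 12 were at 0.04, 0.86, 2.05, −0.02, 0.33 and 0.01. The S-CCS 1M fish of the same numbers were at −1.44, −3.64, −2.09, −0.77, −2.53 and −2.87. The groups did not overlap, and net-pen 1M was higher (difference 2.77, SE 0.62, limma adjusted p = 0.012). The signal was close to background, at 10.2 to 46.0 units in net-pen 1M and 1.7 to 6.5 in S-CCS 1M, and with 5 and 1 of the 6 arrays well above background the size of the difference is poorly measured. After normexp the difference was 0.28 and no longer passed the adjusted p. With the authors' deposited values it was 1.44.

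Several of the next largest higher features were like one another in their order of fish, and unlike Ssa#S47730056. Below the dim second one, 5 of the next 6 were well above background on all 12 arrays, with differences of 2.22, 2.15, 1.88, 1.83 and 1.71. After normexp these differences were, in the same order, 0.74, 0.73, 0.73, 1.23 and 1.26. All 5 still passed the adjusted p, but the smaller values were below the 0.8 of a call, so their size depended on the background correction. The adjusted p was lost in 3 of 28 alternatives for the difference of 2.22 and in 7 for that of 1.71, each with 1 fish left out. In all 5 features fish 12 was the highest and fish 2 the lowest of net-pen 1M, so they are not separate observations. In the seventh the net-pen 1M signal ran from 134 to 584 units and the S-CCS 1M signal from 74.0 to 111 (difference 1.83, SE 0.38, limma adjusted p = 0.00679). The net-pen 1M fish were spread widely in this feature and all lay above the S-CCS 1M fish, which were close together. None of the 5 passed an adjusted p under 0.05 for net-pen 1M against smolts, with differences between 0.75 and 1.08. For S-CCS 1M against smolts the differences were between −1.40 and −0.84. Only the feature with a difference of 2.15 between the systems passed there (−1.40, limma adjusted p = 0.0470). For 2 features no array of S-CCS 1M was well above background, and for these the processed signal gives only a bound. By group means net-pen 1M was at least 2.24-fold and at least 1.73-fold higher, with 5 and 3 of its 6 arrays well above background. In units, before lowess, the fish overlapped in both, with S-CCS 1M fish 2 at 9.06 and 8.05. Net-pen 1M ran from 3.64 to 16.4 and from 3.13 to 10.9 units. The bound does not carry over to other background corrections. After normexp the 2 differences were 0.15 and 0.11, and neither passed the adjusted p. With the deposited values they were 0.85 and 0.63.

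The brightest called feature was Ssa#GRASP223648733, with a mean signal of 40581 units over the 12 arrays. In log2-ER the net-pen 1M fish 1, 2, 6, 7, 11 and 12 were at 0.67, 0.59, 0.71, 0.63, 0.11 and 0.13. The S-CCS 1M fish were at −0.50, −0.28, −0.13, −0.58, −0.46 and −0.06. The groups were narrow and did not overlap, and the difference was 0.81 (SE 0.14, limma adjusted p = 0.00202). The 7 smolts lay far below both, between −2.25 and −1.68, with net-pen 1M 2.40 and S-CCS 1M 1.60 above them. The feature had thus risen from the smolt level in both systems, and further in net-pen 1M. Its difference between the systems passed the 0.8 of a call only narrowly. It fell below 0.8 in several alternatives, to 0.79 with quantile normalization, 0.75 without lowess and 0.76 without S-CCS 1M fish 7. The adjusted p was kept in all 28 alternatives.

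The other 4 bright higher features were above smolts in net-pen 1M as well, by 1.51 to 5.16. The largest difference of all called features, 3.50 (SE 0.85, limma adjusted p = 0.0179), belonged to the fifth in brightness. Its signal ran from 1018 to 26064 units in net-pen 1M and from 152 to 2249 in S-CCS 1M. The groups overlapped, since S-CCS 1M fish 2 was brighter than 3 of the net-pen 1M fish, and net-pen 1M fish 1 and 12 were far above the other 4. All 12 fish were above every smolt but for 4 S-CCS 1M fish that lay within the smolts' range of −7.15 to −4.16.

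Among the lower features with separated fish and an adjusted p under 0.05 the largest difference was that of Ssa#S35669450, and it owed part of its size to 1 fish. In log2-ER the net-pen 1M fish 1, 2, 6, 7, 11 and 12 were at −1.49, −1.73, −1.73, −2.65, −0.96 and −2.50. The S-CCS 1M fish were at −0.88, 2.66, −0.58, −0.38, −0.73 and −0.23. The groups did not overlap, but fish 2 of S-CCS 1M, on a detrended array, stood at 353 units where the other 5 had 11.8 to 21.7. The difference was −1.82 (SE 0.41, limma adjusted p = 0.0124), −1.28 without that fish and −1.90 with the signal without detrending. It was −0.44 after normexp, still past the adjusted p, and −1.76 with only the 12 arrays in the fit, where it did not pass the adjusted p. The same S-CCS 1M fish 2 also stood far above the other 5 in the thirteenth and fourteenth largest lower features. In log2-ER it was at 1.53 against −0.24 to −0.02 in the thirteenth, and at 1.81 against −0.34 to 0.27 in the fourteenth. The gap was wider in units, which carry no lowess correction. There it was at 83.0 against 5.8 to 9.9 in the thirteenth, and at 115 against 7.1 to 11.5 in the fourteenth.

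Lower features with tight groups were found at middle brightness. The fifth largest had signals of 76.9 to 103 units in net-pen 1M and 163 to 363 in S-CCS 1M (difference −1.45, SE 0.17, limma adjusted p = 2.87e-05). The eleventh had 277 to 406 units in net-pen 1M and 710 to 1361 in S-CCS 1M (difference −1.21, SE 0.15, limma adjusted p = 3.84e-05). In both the groups were clearly apart, the S-CCS 1M mean was 0.01 from that of the smolts, and net-pen 1M minus smolts was −1.44 and −1.20. The sixth and seventh had the reverse position. There net-pen 1M was near the smolts, at −0.14 and −0.03, and S-CCS 1M was above them by 1.25 and 1.29. In 3 of the 15, the fourth, twelfth and thirteenth, no array of net-pen 1M was well above background. In the processed signal S-CCS 1M was at least 1.22-fold to at least 1.32-fold higher by group means. In units, before lowess, the fish of the twelfth and of the thirteenth overlapped. None of the 3 passed the adjusted p after normexp. Over the alternatives their differences shrank to as little as −0.13, −0.10 and −0.12. The twelfth lost the adjusted p in 10 of 27 alternatives and the thirteenth in 6, among them the one without S-CCS 1M fish 2.

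Among bright features the lower ones were led by Ssa#S35563748, with a mean signal of 4152 units. In log2-ER the net-pen 1M fish 1, 2, 6, 7, 11 and 12 were at −0.68, −0.44, −0.01, −0.69, −0.99 and −0.36. The S-CCS 1M fish were at 0.02, 0.62, 0.61, 0.10, 0.59 and 0.12. The highest net-pen 1M fish nearly touched the lowest S-CCS 1M fish, and the difference was −0.87 (SE 0.17, limma adjusted p = 0.00385). The smolts were at 0.40 to 1.12, and the difference from them was −1.14 for net-pen 1M and −0.27 for S-CCS 1M. Of the other 4 bright lower features, 1 had a difference of −2.40 with overlapping fish. Its signal was 431 and 616 units in S-CCS 1M fish 2 and 11, against 2117 to 2281 in the other 4, and 936 units in net-pen 1M fish 11, against 127 to 238 in the other 5.

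**Figure D4:**
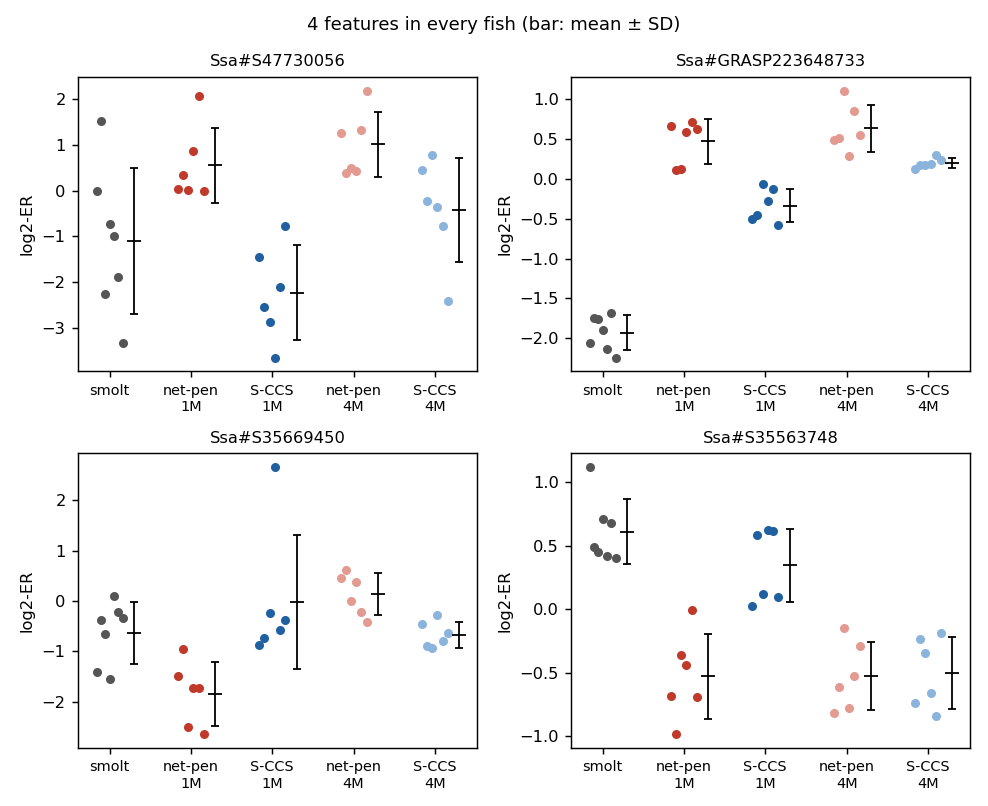
log2-ER of 4 features in every fish of the 5 groups (points), with bars for mean ± SD. Net-pen 1M and S-CCS 1M do not overlap in any of the 4, the smolts of Ssa#GRASP223648733 lie between −2.25 and −1.68 below all other fish, and S-CCS 1M fish 2 stands at 2.66 in Ssa#S35669450.

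The called features were followed in other fish of the same systems, sampled after 4 months, whose arrays were normalized and fitted together with those of 1 month and in part shared their slides. Of the 872 features 149 (17.1%) were also called between the systems at 4 months, against 5.49% of all kept features. The direction was turned in most of them, with 41 in the same and 108 in the opposite direction. The features higher in net-pen 1M had a median difference of −0.44 at 4 months, and 456 of 561 changed sign. The features lower in net-pen 1M had a median of 0.25, and 204 of 311 changed sign. Over all kept features the differences at the 2 times were also inversely related. Their Pearson r was −0.25, against −0.35 among the called features, so the turn was not particular to these. The fish of the 2 systems were completely apart at 4 months in 14 of the 872 in the same and in 36 in the opposite direction, together 5.73%, against 4.11% of all kept features in either direction. The change between times passed an adjusted p under 0.05, as an interaction in the limma fit, in 467 of the 872 and in 16.2% of kept features, and choosing features by their 1-month difference raises that count by itself.

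This turn of direction differed in size between the slides of net-pen 4M. In net-pen 4M, 4 of the 6 arrays were on the 2 slides that also held S-CCS 1M fish, and the 561 higher features had a mean log2-ER of −0.60 and −0.24 on these slides and of −0.02 on the slide without S-CCS 1M. With only the 4 fish of shared slides the median 4-month difference of the 561 features was −0.59, and with only the other 2 fish it was −0.11, where 324 of 561 had changed sign. For the 311 lower features the corresponding medians were 0.37 and −0.02, and 155 of 311 had changed sign with the other 2 fish. Without the 4 arrays the interaction passed in 113 called features in place of 467, in a fit that also held fewer fish. Deviations from the group means cannot show a shift shared by a whole group. Over all features those of S-CCS 1M fish and of net-pen 4M fish or smolts had a median correlation of −0.02 on the same slide (10 pairs). On other slides it was −0.004 (68 pairs). In net-pen 4M the arrays of fish 1 and 2, on the slide without S-CCS 1M, were both detrended. On the shared slides those of fish 6 and 12 were detrended, and those of fish 7 and 11 were not. The part of the slides or of the detrending in the turn was not tested.

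**Figure D5:**
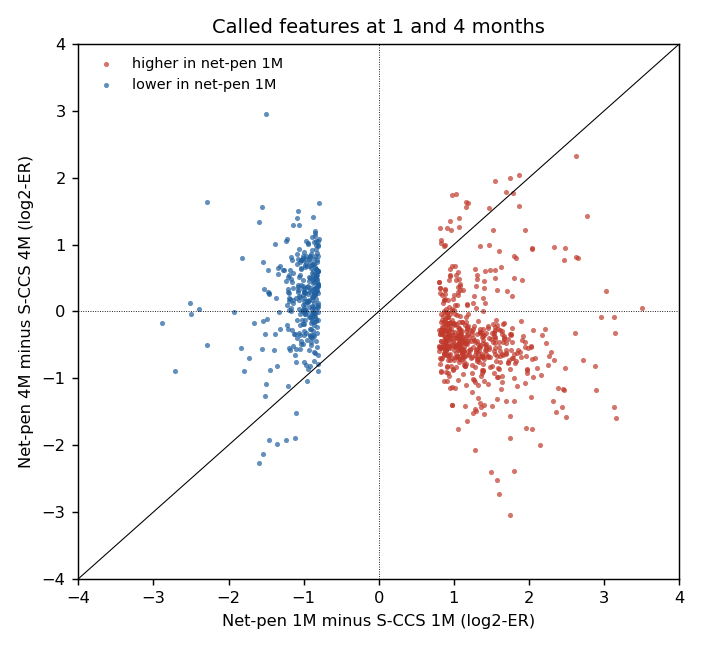
Difference between the systems at 4 months (vertical axis) against that at 1 month (horizontal axis), both net-pen minus S-CCS in log2-ER, for the 872 called features, with the diagonal of equal differences. Of the 561 red points 456 lie below 0 and of the 311 blue points 204 lie above it, with 4 of the 6 net-pen 4M arrays on slides shared with S-CCS 1M.

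At 4 months 7.92% of kept features passed an adjusted p under 0.05 between the systems. Of the 15 largest higher features 13 had the opposite sign at 4 months and 13 passed the interaction. The adjusted p at 4 months was passed by 1 of them, with the opposite sign (−1.28, limma adjusted p = 0.0486). Of the 15 largest lower ones 6 had the opposite sign and 9 kept their sign at 4 months, and 7 passed the interaction. Choosing the 15 in each direction by their 1-month difference raises these interaction counts by itself. The 4 lower ones that passed the adjusted p at 4 months had kept their sign. The fifth largest lower feature, the one with 76.9 to 103 units in net-pen 1M, had a difference of −0.88 at 4 months (limma adjusted p = 0.00386). Ssa#GRASP223648733 was higher in net-pen at both times, with 0.43 at 4 months (limma adjusted p = 0.0485). Ssa#S35563748 had a 4-month difference of −0.03, since S-CCS 4M had come down to −0.50 and net-pen 4M was at −0.53.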

How the data were processed

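Skin RNA of 12 fish, 6 of net-pen 1M and 6 of S-CCS 1M, was compared within the series of 31 arrays, with groups and fish numbers taken from the sample labels. For each single-colour array (Cy3) the authors deposited the table of the scanner software. Its processed signal is a background-subtracted intensity in arbitrary units. The deposited tables also hold yes-or-no marks for spots well above background, saturated or irregular. A further deposited table holds an intensity equal to the median signal minus the local background times 1 constant for every array (the log2 ratio had an SD of 0.00102 to 0.00133, and column medians were 81 to 112) and served as an alternative.

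The mean intensity of the arrays was made equal, each feature was expressed relative to its mean over the arrays, and the log2 of this ratio was lowess-corrected (span 0.3) on the mean log2 intensity. The study's methods name these steps but neither the signal nor the span. In all, 76 values of the 12 arrays with a mark for non-uniform or outlying spots were dropped. The filter kept 14172 features that were well above background in 50% or more of a group's arrays and removed 669. All 31 arrays entered 1 fit of 5 groups in limma 3.58.1 (R 4.3.3), with Benjamini-Hochberg adjustment over the kept features. The study's methods give the criteria for calls and do not name the test. Tables were made with Python 3.11.15, numpy 2.4.6, pandas 2.3.3 and scipy 1.17.1, and figures with matplotlib 3.10.9. The steps were tested on simulated data.

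The named features were the 15 highest and 15 lowest differences with an adjusted p under 0.05 and no overlap between fish, and the 5 brightest in each direction that met both criteria and the adjusted p. The rule asked for the first 8 in full, but features without gene names are limited to 2 IDs in each direction, and the rest are given by rank. An "at least" fold sets the brighter group's mean against the dim group's mean, where each dim array counts as no less than the lowest signal well above background on it. Such a fold was taken from the processed signal and is no bound under other background corrections. Gene lists and cell type markers could not be used without gene names, and no probe sequence was used. Comparisons, lists and rules were chosen with earlier results of these data known.

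Alternatives were quantile normalization, scaling to the 75th percentile, normexp on the median signal with an offset of 50, no lowess or a span of 0.7, the deposited values, the signal without detrending, other filters, only the 12 arrays, array weights, trended and robust spread, fish number or slide as a block, each fish left out, and stricter criteria. Leaving out the 2 detrended arrays, and leaving out the 4 net-pen 4M arrays on slides shared with S-CCS 1M, were added after the data were seen. Precision is limited by the number of arrays.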

Additional observations from a re-analysis of the deposited data

Results flagged for a closer look

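In 28 groups of fish examined for a sample far from the others, 3 were found where chance gives about 1.4, since about 1 group in 20 is picked by chance. In Ssa#S35669450, S-CCS 1M fish 2 had a log2-ER of 2.66, and the other 5 fish lay between −0.88 and −0.23. In the same fish 97.1% of features were well above background, against 91.2% to 93.4% in the other 5. In Ssa#S35563748, smolt fish 1 had a log2-ER of 1.12, and the other 6 smolts lay between 0.40 and 0.71. The limma interaction between 1 and 4 months passed an adjusted p under 0.05 in 2 of the 4 features printed with their IDs. These features were chosen with the help of their 1-month difference, which favours such a result by itself. The 1-month difference minus the 4-month difference was −2.63 in Ssa#S35669450 (adjusted p = 0.00426), where the 4-month difference was 0.81, and −0.85 in Ssa#S35563748 (adjusted p = 0.0168), where it was −0.03. At 4 months the 2 net-pen 4M fish on the slide without S-CCS 1M were at 0.46 and 0.38 in the former and at −0.82 and −0.78 in the latter.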

How the results depend on the processing

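Over 28 alternatives the 40 named differences kept their sign. This was largely set by the choice of features, all of which had an adjusted p under 0.05 in the same data. Where the fish of the systems did not overlap, leaving out a single fish could hardly turn the sign. The kept signs are therefore no test of robustness. The adjusted p was lost in 88 of 1108 values. It was lost most often, 12 each, without net-pen 1M fish 12 or S-CCS 1M fish 7, and in 9 after normexp. Another 12 values were missing because of the stricter filter. After normexp 255 features were called, 85.5% of them higher, of which 72 were called against smolts in net-pen 1M only and 105 passed the interaction. Without lowess the share of higher calls reversed to 31.5%, or 53.2% relative to the shifted median. The deposited values gave 73.5% higher calls and 146 called against smolts in net-pen 1M only, and the filter on all 12 arrays 161, where the values above give 249. The adjusted p passed in 1591 features without lowess, 1673 with the deposited values, 1737 without detrending, 408 with only the 12 arrays and 1712 with array weights. Without the 2 detrended arrays 1414 features separated the fish, and without the 4 net-pen 4M arrays 113 called features passed the interaction. A difference above 1 was met by 529 features, and the adjusted p together with 0.8 by 408. The cause of these changes was not tested, apart from fewer fish or stricter limits.

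Leaving out 1 fish at a time gave 749 to 1103 called features, 358 to 1301 at the adjusted p, 509 to 1020 with separate fish, 61.0% to 69.1% higher, 8071 to 8539 with intervals inside 0.8, 197 to 309 called against smolts in net-pen 1M only and 337 to 622 passing the interaction. With the fish number as a replicate block, 862 were called and 722 passed the adjusted p, and the numbers do not pair the fish, since deviations of same-numbered fish correlated with a median of −0.10 and 0 of the 6 net-pen 1M fish correlated best with its own number. With slide as a random block, 914 were called and 1137 passed, at a correlation within slides of −0.04. Signals near background limit the dimmest quintile.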
